A study of Mus musculus with 6 samples.

Results

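Müller glia are the radial glia that span the whole retina, and 10 genes that mark them were followed in mouse retinas that lack Dicer1 in rods. The 10 are Aqp4, Kcnj10, Car14, Gpr37, Sox2, Sox9, Vim, Clu, Apoe and Dkk3, taken by symbol from a deposited table of 22731 gene symbols as Müller glia markers that lie outside retinoid and glutamate handling. All 10 were found, and all 10 averaged at least 1 RPKM (reads divided by gene length in kilobases and by library depth) and so were among the 12599 genes tested. The rule picks the genes by symbol and not by a measured value.

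The libraries were made from retinas of mice at 4 weeks of age on a mixed C57BL/6J and SJL background, collected between 8 and 10 in the morning. All mice carried floxed alleles of Dicer1, which encodes the ribonuclease that cuts microRNA precursors. The 3 conditional knockout (cKO) libraries, replicates 2, 3 and 4, came from Dicerfl/fl, iCre75+ mice, whose transgene drives Cre recombinase in rods, and the 3 control libraries, replicates 1, 2 and 3, from Dicerfl/fl, iCre75- littermates. Each library pooled the RNA of 4 mice. No group without floxed alleles and no group with the transgene alone is among the 6 libraries. The RNA came from whole retina, so the glia themselves were not isolated, and the floxed alleles of glia are not the target of a rod-restricted Cre.

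Müller glia hold the retina together, clear potassium that neurons release, move water along with it, and exchange metabolites and lipids with photoreceptors and inner neurons. Potassium enters and leaves through the inwardly rectifying channel Kir4.1, encoded by Kcnj10, and water through aquaporin-4, encoded by Aqp4. Both proteins are anchored in the glial endfeet by the dystrophin complex. Sox2 and Sox9 are transcription factors kept on from the retinal progenitor stage, and Vim encodes vimentin, the glial intermediate filament protein, which in injured retina rises together with Gfap.

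Whole reads worked back from the RPKM steps gave between 12336599 and 32935029 reads in genes per library, with cKO replicate 4 the shallowest. These are the smallest read numbers that fit the values, which cannot show whether the reads of cKO replicate 4 were counted differently, and its depth and counting errors rest on that choice. The 10 genes were well covered: the lowest number was 292 reads, for Sox2 in cKO replicate 4, and the highest 61554 reads, for Apoe in control replicate 3. A number of 292 reads alone carries a counting error of 5.85%, and the lowest Apoe number one of 0.710%. Dicer1 itself, counted over the whole gene and over all retinal cells, was at 8.48, 8.77 and 8.33 RPKM in the controls against 8.02, 7.06 and 7.90 RPKM in the cKO libraries, lower in each of the latter (limma adjusted p = 0.931), which is a weak check of the genotype. The libraries are pools of mice, so the p-values below measure the spread between pools.

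By the annotation of GENCODE M21 on GRCm38, which is not the mm9 build that the submitters' processing notes name and which serves only to place the genes, all 10 are protein-coding genes. Kcnj10 spans 172341210 to 172374085 on chromosome 1, Vim 13573927 to 13582826 on chromosome 2, and Gpr37 25665878 to 25690729 on chromosome 6. Apoe spans 19696109 to 19699188 and Dkk3 112116017 to 112159057 on chromosome 7, Sox9 112782224 to 112787760 on chromosome 11, and Clu 65968483 to 65981547 on chromosome 14. Sox2 (34650405 to 34652461) and Car14 (95897768 to 95904691) are both on chromosome 3. Sox2 lies inside the noncoding gene Sox2ot on the same strand with no shared exon base, and Car14 shares 445 exon bases with Aph1a on the opposite strand. The library protocol does not mark strand, so reads in those 445 bases cannot be assigned to Car14 or Aph1a. In the table Aph1a stood at 1.08 ± 0.205 RPKM in control libraries and at 1.24 ± 0.151 RPKM in those of cKO (SD, n = 3 each), and Sox2ot at 2.59 ± 0.536 and 2.65 ± 0.256 RPKM.

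Dicer1 makes the microRNAs that pair with 3′ untranslated regions, but Cre was driven in rods, so Dicer1 in Müller glia was not its target. As a description of sequence only, the longest annotated 3′ region of each gene was searched on the mRNA strand. The search was for a 7-base match to the seed (bases 2 to 8) of 5 retinal microRNAs. Of these, miR-183, miR-96 and miR-182 come from the cluster that photoreceptors express strongly. The mature sequences, from RefSeq on GRCm38.p6, are shown with the seed in capitals.
mmu-miR-183-5p: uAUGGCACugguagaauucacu
mmu-miR-96-5p: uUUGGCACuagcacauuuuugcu
mmu-miR-182-5p: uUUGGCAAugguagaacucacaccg
mmu-miR-204-5p: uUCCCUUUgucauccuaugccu
mmu-miR-9-5p: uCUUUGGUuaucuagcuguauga

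Of the 10 genes, 3 held the miR-182 match TTGCCAA (Aqp4, Kcnj10 and Sox2), against 14.4% of the 11048 tested genes with an annotated 3′ region. Aqp4 and Gpr37 held the miR-183 match GTGCCAT, which 12.6% of those genes hold. Kcnj10 held the miR-204 match AAAGGGA at 2 places, and 17.6% of genes hold it at least once. None of the 10 held the miR-96 match GTGCCAA (11.4% of genes) or the miR-9 match ACCAAAG (15.8%). The 3′ regions differ greatly in length, from 271 bases in Apoe to 4025 in Kcnj10, and a longer region holds a match more often. The matches in Kcnj10, Sox2 and Gpr37 follow, with the seed match in capitals, and those in Aqp4 (1 for miR-182 and 1 for miR-183) are not printed. A match is a string of letters and not a shown site of binding.
Kcnj10, match to miR-182: tcgtcccagagccTTGCCAAgg
Sox2, match to miR-182: ataagctgagaatTTGCCAAta
Gpr37, match to miR-183: catctctgagtcaGTGCCATct
Kcnj10, first match to miR-204: ttcagactttaacAAAGGGAca
Kcnj10, second match to miR-204: tttgcttgatggaAAAGGGAgg

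None of the 10 Müller glia genes passed the test between cKO and control retinas. Their log2 fold changes ran from −0.17 for Aqp4 to 0.07 for Car14, with 6 above and 4 below 0, and their median was 0.02 beside −0.005 over all tested genes. By limma on log2(RPKM + 0.5), with Benjamini-Hochberg adjustment over all 12599 genes, 0 of 10 had an adjusted p under 0.05, where 0.00794% of all tested genes did. At an unadjusted p under 0.05 there was 1 of 10, Aqp4, against 5.71% of tested genes. Limma voom on the recovered reads also called 0 of 10 and had 1 under an unadjusted p of 0.05. The 3 cKO values lay wholly below the 3 control values in 1 of the 10, again Aqp4, as in 5.78% of tested genes, and wholly above them in 0, against 5.91%.

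**Figure D1:**
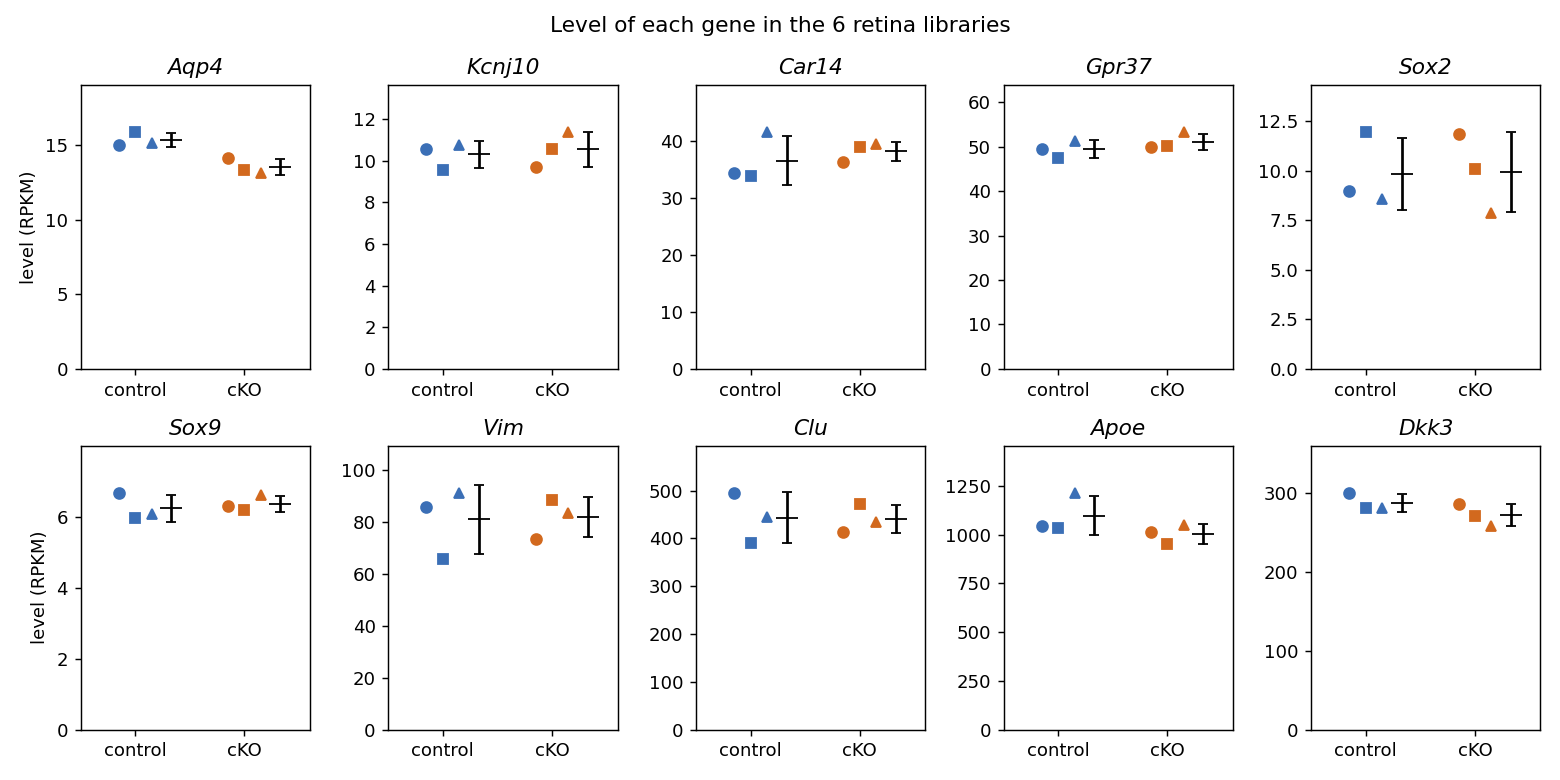
RPKM of each of the 10 genes (vertical axes, linear and starting at 0, each with its own range) in the 3 control (blue) and 3 cKO (orange) libraries. Circle, square and triangle are replicates 1, 2 and 3 of the controls and 2, 3 and 4 of the cKO, and the black mark is the group mean with its SD. Aqp4 is the 1 gene whose groups do not overlap.

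The 95% interval of the fold change, cKO over control, ran from 0.886 to 1.18 for Kcnj10, from 0.901 to 1.16 for Sox9 and from 0.908 to 1.18 for Gpr37. It was widest for Sox2, from 0.768 to 1.32. Over the 10 genes the median distance from the estimate to the end of its interval was 0.23 on the log2 scale, beside 0.24 over all tested genes. The pooled within-group SD of the log2 values had a median of 0.10 in the 10 genes and 0.13 in all tested genes.

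**Figure D2:**
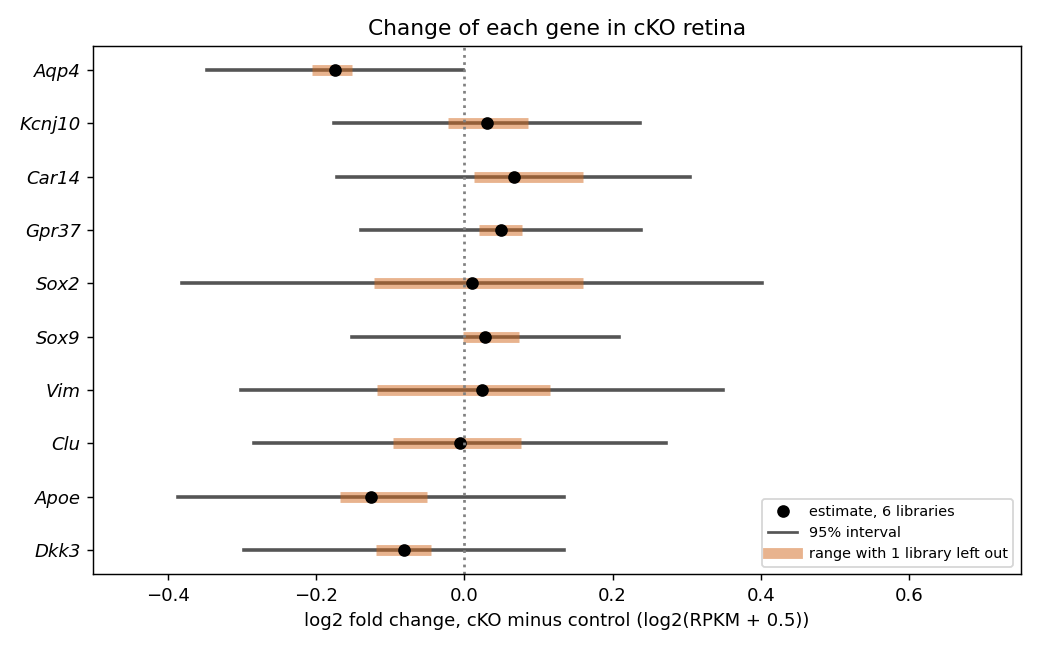
Log2 fold change of each gene, cKO minus control, on the log2(RPKM + 0.5) scale (horizontal axis). Black points are estimates from all 6 libraries, grey lines the 95% intervals from limma, and orange bars the range of estimates when 1 library is left out. The Aqp4 interval ends just below 0, and the other 9 intervals span 0.

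Among the membrane channels, Aqp4 was at 15.04, 15.9 and 15.2 RPKM in control replicates 1, 2 and 3, and at 14.2, 13.4 and 13.1 RPKM in cKO replicates 2, 3 and 4. The 3 cKO libraries thus sat below every control, at 88.3% of the control mean (13.6 ± 0.535 against 15.4 ± 0.447 RPKM, SD, n = 3 each). The difference was −0.17 ± 0.07 (SE) on the log2 scale, with a 95% interval from −0.35 to −0.0017, an unadjusted limma p of 0.0482 and an adjusted p of 0.871. A two-sided exact permutation test gave p = 0.1, and no smaller p is possible with 3 libraries in each group. By its p Aqp4 ranked 693 among the 12599 tested genes. In bulk retina, fewer cells of a type and less RNA per cell cannot be told apart.

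Set against the summed RPKM of Rlbp1, Glul and Slc1a3, which encode the retinoid binding protein, glutamine synthetase and glutamate transporter of Müller glia, Aqp4 amounted to 2.46% ± 0.110 in controls and 2.14% ± 0.131 in cKO retinas. The groups again did not overlap, with cKO values between 2.02% and 2.28% and controls between 2.36% and 2.58%. The exact permutation p was again 0.1. That summed level itself overlapped between the groups, at 614 to 641 RPKM in controls and 620.1 to 660 RPKM in cKO. The ratio reuses the Aqp4 values over a sum that differed little between libraries. Its placement is therefore not support separate from that of Aqp4 alone. In the same ratio, every other gene of the set overlapped between the groups.

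Kcnj10 did not share the placement of Aqp4. It was at 10.6, 9.57 and 10.8 RPKM in control replicates 1, 2 and 3 and at 9.71, 10.6 and 11.4 RPKM in cKO replicates 2, 3 and 4. The lowest value was a control and the highest a cKO library, and the ranges overlapped. Its difference on the log2 scale was 0.03 ± 0.09 (SE, limma adjusted p = 0.997). That difference ran from −0.02 without cKO replicate 4 to 0.09 without cKO replicate 2. The ratio of Aqp4 to Kcnj10 RPKM was 1.42, 1.66 and 1.41 in controls and 1.46, 1.27 and 1.16 in cKO libraries. Those ratios overlapped through cKO replicate 2 (exact permutation p = 0.3).

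Car14, the membrane-bound carbonic anhydrase XIV that handles carbon dioxide and bicarbonate at the glial surface, was at 34.4, 33.8 and 41.5 RPKM in controls and 36.2, 38.9 and 39.4 RPKM in cKO libraries. The 3 cKO values fell between the lowest and the highest control. Its log2 fold change of 0.07 ± 0.10 (SE, limma adjusted p = 0.997) was the largest of the 10 above 0. Without control replicate 3 it was 0.16, and without control replicate 2 it was 0.01.

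Gpr37, an orphan G protein-coupled receptor for which prosaposin peptides have been proposed as ligands, was at 49.5, 47.4 and 51.4 RPKM in controls and 50.0, 50.2 and 53.3 RPKM in cKO libraries. It was among the steadiest of the 10, with the highest value 1.12 times the lowest over the 6 libraries. Its change of 0.05 ± 0.08 (SE, log2 scale) had a limma adjusted p of 0.997. Without control replicate 2 it was 0.02, and without control replicate 3 it was 0.08.

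Sox2 varied the most. It stood at 8.99, 11.9 and 8.55 RPKM in controls and at 11.9, 10.1 and 7.86 RPKM in cKO libraries. Both groups therefore held a high library (control replicate 2 and cKO replicate 2) and a low one, and the highest value was 1.52 times the lowest. The group means were 9.82 ± 1.84 and 9.92 ± 2.00 RPKM, a log2 fold change of 0.01 ± 0.17 (SE, limma adjusted p = 0.997). The direction was not stable: leaving out cKO replicate 2 gave −0.12 and leaving out cKO replicate 4 gave 0.16. The part of retinal cells other than Müller glia in the Sox2 values was not tested.

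Sox9, the partner factor, was at 6.66, 5.95 and 6.08 RPKM in controls and 6.29, 6.18 and 6.62 RPKM in cKO libraries. It showed none of the Sox2 spread, with the highest value 1.12 times the lowest, and its groups overlapped. Its change was 0.03 ± 0.08 on the log2 scale (SE, limma adjusted p = 0.997), and −0.0014 without control replicate 2.

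Vim, the filament gene, was at 86.1, 65.9 and 91.3 RPKM in controls and 73.5, 88.7 and 83.5 RPKM in cKO libraries. Control replicate 2 was the lowest and control replicate 3 the highest, so the control range enclosed every cKO value. The means were 81.1 ± 13.4 and 81.9 ± 7.75 RPKM, with a log2 fold change of 0.02 ± 0.14 (SE, limma adjusted p = 0.997). It changed sign with the libraries used, from −0.12 without control replicate 2 to 0.12 without control replicate 3. Lens also expresses Vim, and the summed RPKM of 7 lens markers (among them Cryaa and Mip) ranged from 267 to 2559 in controls and from 167 to 1804 in cKO libraries. The part of lens RNA in the Vim values was not tested.

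The secreted proteins of the set are encoded by Apoe, Clu and Dkk3, which were its most abundant genes. Apoe, the lipid-carrying apolipoprotein that Müller glia release, was at 1045, 1033 and 1214 RPKM in controls and 1013, 950.2 and 1049 RPKM in cKO libraries. The groups overlapped, since cKO replicate 4 lay above 2 controls, and the cKO mean was 91.5% of the control mean. The change of −0.13 ± 0.11 on the log2 scale (SE, limma adjusted p = 0.988) became −0.05 when control replicate 3, the library with the highest value, was left out. Macrophages and microglia also make Apoe, and the summed RPKM of their 10 markers ranged from 27.3 to 29.0 in controls and from 22.7 to 30.02 in cKO libraries. Their part in the Apoe values was not tested.

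Clu, which encodes the secreted chaperone clusterin, was at 495, 390 and 446 RPKM in controls and 414, 472 and 434 RPKM in cKO libraries. The control range enclosed all 3 cKO values, and its change was −0.0057 ± 0.12 on the log2 scale (SE, limma adjusted p = 0.998). It ran from −0.10 without control replicate 2 to 0.08 without control replicate 1. Dkk3, a secreted member of the Dickkopf family, was at 300.3, 282 and 281 RPKM in controls and 286, 271 and 258 RPKM in cKO libraries. Here 2 of the 3 cKO values lay below all controls, and cKO replicate 2 lay above 2 of them. For Dkk3 the difference on the log2 scale was −0.08 ± 0.09 (SE, limma adjusted p = 0.997), and it stayed below 0 without each library in turn, from −0.12 to −0.04.

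The order of the levels, on the length-scaled RPKM averaged over the 6 libraries, was Apoe (1051), Clu (442), Dkk3 (279.8), Vim (81.5), Gpr37 (50.3), Car14 (37.4), Aqp4 (14.5), Kcnj10 (10.4), Sox2 (9.87) and Sox9 (6.30). Apoe was above 99.9% of the tested genes, and Sox9 above 38.6%. Each gene lay above the next in all 6 libraries, with ranges that did not overlap, except Kcnj10 and Sox2. Kcnj10 was above Sox2 in 4 of 6 libraries, and the exceptions were cKO replicate 2 and control replicate 2.

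The 10 genes did not vary as a block from library to library. In control replicate 2, 6 of the 10 had their lowest value (Kcnj10, Car14, Gpr37, Sox9, Vim and Clu), while Aqp4 and Sox2 had their highest there. In cKO replicate 4 the placement was opposite for some of these: Aqp4 and Sox2 were lowest and Kcnj10 and Gpr37 highest, and Dkk3 was lowest too. Car14, Sox9, Vim and Clu did not have their highest value there. Control replicate 2 and cKO replicate 2 had the lowest summed RPKM over the table, at 279310 and 283393, against 295910 to 314509 in the other 4 libraries. These 2 libraries also had the smallest share of the depth denominator in genes, at 77.2% and 78.3%, against 79.0% to 81.5%. The part of this library difference in the values of the 10 genes was not tested. With both libraries left out, Aqp4 had a log2 fold change of −0.18, Sox2 of 0.02 and Vim of −0.04, and 0 of 10 were called.

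**Figure D3:**
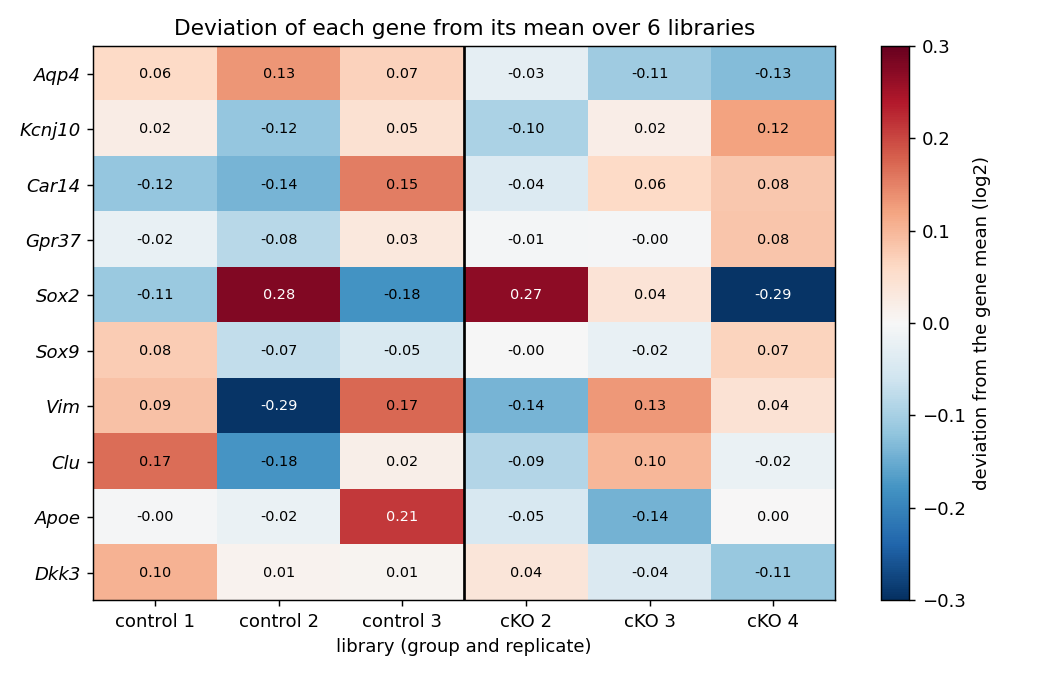
Deviation of each gene (rows) from its own mean over the 6 libraries (columns), as log2(RPKM + 0.5), with controls left of the black line and cKO libraries right of it. Red is above and blue below the gene mean, and each cell prints its value. Sox2 is high in control 2 and cKO 2, where Kcnj10 and Vim are low.

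The genes whose profile over the 6 libraries was nearest to Aqp4, among 5935 other genes that averaged 10 RPKM or more, were Cmtm4, Mpdz and Rbm15, with Pearson correlations of 0.984, 0.981 and 0.978. Cmtm4 was at 11.4, 11.9 and 11.1 RPKM in controls and 10.4, 9.85 and 9.23 RPKM in cKO libraries. The genes nearest to Aqp4 were picked for likeness to a profile that separates the groups, so the placement of Cmtm4 follows from that choice. Those nearest to Kcnj10 were Resp18, Rasgef1b and Pde6d, with 0.997, 0.996 and 0.995. Of the 5935 genes, 779 had a correlation over 0.9 with Kcnj10 and 24 with Aqp4. These correlations describe libraries that share depth and preparation, and no test was attached to them.

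Genes related to the 10 by function were read from 8 lists with 161 genes, of which 134 were tested. None of the 134 passed by limma in either direction, and 14 had an unadjusted p under 0.05, which 5.71% of all tested genes had. In the list of partners of water and potassium transport, 16 of 25 tested genes were above and 9 below 0, with a median log2 fold change of 0.04 beside −0.005 over all tested genes. Atp1b2, the beta subunit of the glial sodium pump, was its most abundant member and had the smallest p above 0, with 410 ± 27.4 RPKM among controls against 507 ± 34.7 RPKM among cKO libraries (limma adjusted p = 0.848). Dmd, the gene of dystrophin, whose complex anchors aquaporin-4 and Kir4.1, had the smallest p below 0. Its values were 6.23 ± 0.346 and 5.53 ± 0.317 RPKM (limma adjusted p = 0.918), and the 3 cKO values lay below the 3 controls as they did for Aqp4.

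The Müller markers of retinoid and glutamate handling had 6 of 7 tested genes above 0 and a median of 0.04. Glul was at 357 ± 12.4 and 359 ± 19.1 RPKM and Slc1a3 at 36.7 ± 1.52 and 35.9 ± 1.46 RPKM. Slc38a3, a glutamine transporter, had the smallest p above 0, with 260.04 ± 11.5 and 369 ± 16.4 RPKM (limma adjusted p = 0.424). Of 15 other tested genes that were listed as Müller markers, 6 were above and 9 below 0, with a median of −0.04. The most abundant of them was Aldoc, at 301 ± 42.0 and 346 ± 28.9 RPKM, and Slc1a2 at 20.3 ± 0.819 and 18.5 ± 1.27 RPKM had the smallest p below 0. The part of retinal neurons in the Slc1a2 values, and of other cells in the rest of that list, was not tested.

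Beside Sox2 and Sox9, 23 other regulators of glial and progenitor fate were tested, with 15 above and 8 below 0 and a median of 0.04. Msi1, which encodes an RNA-binding protein and was the most abundant, was at 182 ± 29.4 and 229 ± 19.6 RPKM (limma adjusted p = 0.871). The part of rods and other retinal cells in the Msi1 values was not tested. Rbpj, the nuclear effector of Notch, had the smallest p below 0, at 2.17 ± 0.115 and 1.96 ± 0.0547 RPKM.

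Beside Vim, the list of filament and gliosis genes had 13 of 20 tested genes below 0 and a median of −0.06. Of these 20 genes, 6 had an unadjusted limma p under 0.05, against 5.71% of all tested genes, and none passed adjustment. The list was chosen when an earlier analysis of these data was known, so that count is not an independent result about gliosis. Cebpd, a transcription factor of the acute response, had the smallest p below 0, at 3.68 ± 0.287 and 2.50 ± 0.414 RPKM (limma adjusted p = 0.676). Lcn2, which encodes the secreted iron-binding protein lipocalin-2, had the smallest above 0, at 4.74 ± 0.593 and 6.03 ± 0.573 RPKM (limma adjusted p = 0.848). The metallothionein gene Mt1 was the most abundant, at 43.2 ± 6.99 and 38.8 ± 2.97 RPKM.

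Near Car14, the carbonic anhydrase and bicarbonate list had 10 of 17 tested genes above 0 and a median of 0.05. Car2, the cytosolic enzyme of Müller glia, was at 246 ± 31.4 and 240 ± 40.6 RPKM. Slc4a3, an anion exchanger, had the smallest p above 0, at 32.3 ± 0.905 and 39.1 ± 0.958 RPKM (limma adjusted p = 0.758), and Car8 the smallest below 0, at 7.89 ± 0.667 and 7.50 ± 0.340 RPKM. Near Apoe and Clu, the lipoprotein and sterol list had 9 of 20 above 0 and a median of −0.01. Nr1h2, a liver X receptor gene, was at 59.3 ± 3.25 and 61.7 ± 3.87 RPKM. Abca1, the exporter that loads lipid onto apolipoprotein E, had the smallest p below 0, at 1.75 ± 0.252 and 1.29 ± 0.159 RPKM (limma adjusted p = 0.848). Near Dkk3 and Gpr37, 5 of 7 were above 0 with a median of 0.01. Psap, the prosaposin gene, was at 333 ± 22.5 and 373 ± 26.7 RPKM (limma adjusted p = 0.957), and Kremen1, a Dickkopf receptor gene, at 10.7 ± 0.650 and 9.57 ± 1.50 RPKM.

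**Figure D4:**
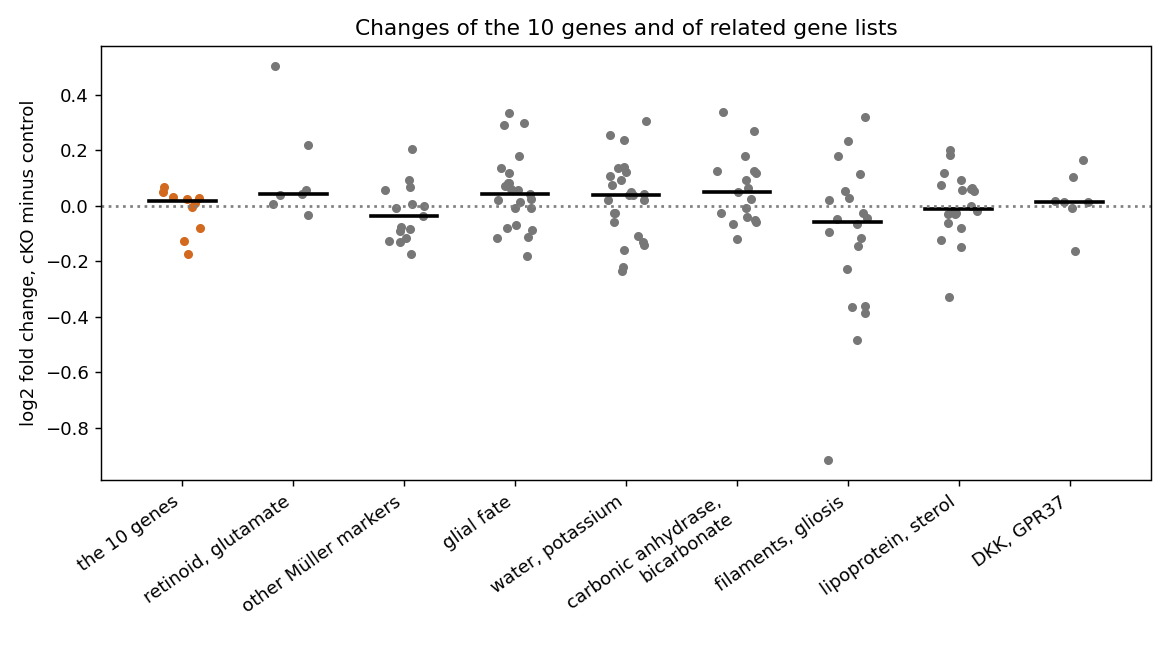
Log2 fold change, cKO minus control (vertical axis), of the 10 genes (orange) and of the tested genes of the 8 related lists (grey), with the median of each as a black line. The 10 genes lie between −0.17 and 0.07, and the gliosis list reaches lowest, to −0.92.

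The Müller genes Rlbp1, Glul and Slc1a3 were present in every library. In whole retina that presence does not show which cells express the 10 genes. The summed RPKM of 6 retinal astrocyte markers ranged from 22.9 to 27.7 in controls and from 23.9 to 26.6 in cKO libraries, and that of 10 pigment epithelium markers from 247 to 299 and from 267 to 327. Of 6 red blood cell markers, 4 were listed at 0 in all libraries, the globin genes Hbb-b1, Hbb-b2, Hba-a1 and Hba-a2. Alas2, another of the 6, averaged 0.993 RPKM. The part of read handling or annotation in the globin values was not tested, so they do not show that blood was absent. Rod markers (8 genes) summed to between 21365 and 24783 RPKM in controls, and between 20180 and 22260 RPKM where Dicer1 was deleted.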

How the data were processed

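The authors deposited 1 table of RPKM values, printed to 5 decimals, for 6 mouse retina libraries of poly(A) RNA. The submitters' processing notes name GSNAP, HTSeq and mm9. The annotation and the handling of reads with several matches were not given in the sources used here. All sample columns were used, as deposited, and mapped to groups by title.

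Values were tested as log2(RPKM + 0.5) for genes averaging 1 RPKM or more, with limma 3.58.1 in R 4.3.3 (variance trend, no block, two-sided, Benjamini-Hochberg over all tested genes, threshold 0.05), and by an exact permutation test for single genes. Fold changes carry the same pseudocount of 0.5. Whole reads were worked back from the RPKM steps. The depth denominators came from 680 genes with a single annotated transcript length in GENCODE M21. Each gene's own length was then fitted, as the smallest whole number that put its values in the 6 libraries on whole reads. The reads were whole for 100% of the 19140 genes above 0, which follows from how lengths were accepted, and are the smallest that fit the values. They were used for depth and for limma voom. The recovery of reads and the limma fit on log2(RPKM + 0.5) were run on simulated data, and voom was not. An earlier analysis of these data was known when the 10 genes, the lists and the tests were chosen. All 10 genes are named. From each list the most abundant gene and the lowest p above and below 0 are named, and 2 such genes are not reported here. Alternatives covered pseudocount, filter, scaling, variance trend, replicate block, left-out libraries, voom and gene length. The last 2, and the fit without the 2 libraries of lowest summed RPKM, were chosen after seeing the data.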

Additional observations from a re-analysis of the deposited data

How the results depend on the processing

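Under all 18 alternatives run, 0 of the 10 genes were called. Aqp4 stayed below 0 in all 18, from −0.20 to −0.15, with a lowest adjusted p of 0.315 and an unadjusted p under 0.05 in 6. Car14, Gpr37, Apoe and Dkk3 also kept their sign. The other 5 genes, all with estimates close to 0, changed sign in 19 cases in all; the cause was not tested. With 1 library left out, Kcnj10 ranged from −0.022 to 0.086, Sox2 from −0.12 to 0.16, Sox9 from −0.0014 to 0.074, Vim from −0.12 to 0.12 and Clu from −0.095 to 0.077. Kcnj10 was −0.0034 and Clu 0.086 over the libraries numbered 2 and 3, with the replicate block and without it. Clu was 6.3e-06 with median-of-ratios scaling, and Vim −0.042 without the 2 libraries of lowest summed RPKM. The labels do not say that a replicate number marks a shared animal, litter or day, so the numbers were not used as pairs. Deviations of same-numbered libraries correlated at 0.47 for number 2 and −0.052 for number 3, and with only these 2 numbers shared the values do not settle whether they pair. Over all tested genes 1 was called, against 192 with the replicate block over the libraries numbered 2 and 3 (1 residual degree of freedom) and 1 over the same 4 libraries without it, 5 without the 2 libraries of lowest summed RPKM, 3 with no filter, with median-of-ratios scaling or with the length correction, and 2 with a mean of at least 5 RPKM, without the variance trend or with voom; leaving out 1 library gave 1 each time. Median-of-ratios scaling moved the median of all genes by 0.0051 and quantile normalization by 0.0022. With 3 pools a group, precision is limited to the intervals given.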
